A study of Mus musculus with 2 samples.

Results

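The G2 and mitotic ECs were 248 of 2517 endothelial cells (ECs) of a PBS library and 61 of 1340 of a cGAMP library, 3857 ECs in all, sequenced from implanted LLC tumours. They were the cells that carried the most transcript of 6 genes of the last stretch of the cell cycle. Members were chosen by a score, the mean of the deposited natural-log values of Cenpf, Ube2c, Cdc20, Ccnb1, Plk1 and Hmmr, and the 8% of cells with the highest score were taken as members. The cGAMP library held a smaller share of such cells, and its members had more interferon-stimulated transcripts than the PBS members and, among the lower-scoring members, more replication transcripts.

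LLC (Lewis lung carcinoma) is a mouse tumour line that was implanted under the skin of adult C57BL/6 mice (by the methods, C57BL/6J males implanted at 8 to 9 weeks), and cGAMP is a cyclic dinucleotide that activates STING, the adaptor of cytosolic DNA sensing. The tumour of the PBS group was injected with vehicle and that of the cGAMP group with cGAMP. Both groups otherwise share strain, tumour line and the sort for live, CD31-positive ECs, so shares below are of live sorted ECs. Each group is 1 mouse and 1 droplet library, so that treatment, mouse and library cannot be told apart, and no test between them was made. Intervals cover counting error only.

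Cells that have copied their DNA pass through G2, where cyclin B and the kinase Cdk1 accumulate, before Plk1 and the Aurora kinases drive the entry into mitosis. The chromosomes then attach to the spindle through their kinetochores, and the anaphase-promoting complex (APC/C) with its activator Cdc20 marks cyclin B and securin for destruction. Of the 6 genes of the rule, Ccnb1 encodes cyclin B1, Plk1 a mitotic kinase, Cdc20 the APC/C activator, Ube2c the ubiquitin-conjugating enzyme that works with it, Cenpf a kinetochore protein and Hmmr a microtubule-binding protein of the spindle. In tumours, sprouting vessels grow by division of ECs, and proliferating ECs are a regular component of the tumour endothelium.

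The score ran from 0.958 in the last member to 2.21 in the first, and the first cell outside had 0.957. Within 0.1 of that limit lay 43 members and 46 other cells, so the limit lies within a continuous range. All 6 genes were detected in 289 members, and also in 221 of the other cells. A score of 0 was found in 47.2% of the PBS cells and 57.0% of the cGAMP cells. Pecam1 (CD31) was detected in 246 of 248 PBS members and 61 of 61 cGAMP members, and Cdh5 (VE-cadherin) in 246 and 60. The leucocyte marker Ptprc (CD45) gave 2 UMIs and 0 UMIs. By the methods the sort took CD31-positive, CD45-negative cells, and clusters without Pecam1 were left out. The values of Pecam1 and Ptprc were thus in part set by that choice and are no check of the label. The 12 genes of the leucocyte list that were measured summed to 14.8 UMIs per 1000000 UMIs of the cells summed (CPM) in PBS members and 37.2 CPM in cGAMP members, against 19.3 and 60.4 CPM in the other cells, and Ptprc and Csf1r were at 0 in the cGAMP members. The 10 pericyte and fibroblast markers summed to 16.2 and 5.17 CPM in members, and the 4 epithelial markers to 1.29 and 0.776 CPM. The part of these transcripts in the results below was not tested.

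Members were deeper than the rest. Their median was 41919 UMIs a cell against 28597 in the other PBS cells, a ratio of 1.47, and 60160 against 40507 in the cGAMP library, a ratio of 1.49. Their UMIs summed to 11665200 (PBS) and 3866280 (cGAMP), so that a gene with no UMI in the cGAMP members could still be at up to 0.776 CPM. The median mitochondrial share was 4.17% in PBS members and 2.91% in cGAMP members, and 4.51% and 2.87% in the other cells. The libraries shared 1 cell barcode, and both of its cells were members: the PBS cell had 946 UMIs, the fewest of any member, and the cGAMP cell 131461. Without that pair the main values below moved little, with a difference in share of -5.34 points in place of -5.30, and a median log2 ratio of the interferon list of 1.22 in place of 1.21. The methods name no removal of doublets, and the high UMI counts of members were not tested for them.

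The promoters of the 6 genes are shown because they carry the letters by which late cell cycle genes are known. The cell cycle genes homology region (CHR; TTTGAA, or TTCGAA as a variant) is bound by the DREAM and MuvB complexes, and CCAAT boxes upstream of it by NF-Y. The sequences are from RefSeq on build GRCm38.p6, run 5′ to 3′ from 150 bases before the start of transcription to 30 after it, and have in capitals each CHR and CCAAT box on either strand (TTCAAA and ATTGG are the same motifs on the other strand). They lie at chr1:189688057-189688236 (minus strand), chr2:164769779-164769958 (plus strand), chr4:118437314-118437493 (minus strand), chr11:40733408-40733587 (minus strand), chr7:122159285-122159464 (plus strand) and chr13:100786457-100786636 (minus strand).
Cenpf: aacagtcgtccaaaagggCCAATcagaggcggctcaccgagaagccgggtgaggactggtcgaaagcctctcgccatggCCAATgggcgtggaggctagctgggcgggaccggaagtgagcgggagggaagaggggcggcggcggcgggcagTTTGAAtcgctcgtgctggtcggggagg
Ube2c: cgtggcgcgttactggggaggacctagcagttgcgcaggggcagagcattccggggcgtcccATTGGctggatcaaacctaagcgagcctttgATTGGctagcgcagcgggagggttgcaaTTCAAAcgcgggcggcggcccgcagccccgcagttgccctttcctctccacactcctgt
Cdc20: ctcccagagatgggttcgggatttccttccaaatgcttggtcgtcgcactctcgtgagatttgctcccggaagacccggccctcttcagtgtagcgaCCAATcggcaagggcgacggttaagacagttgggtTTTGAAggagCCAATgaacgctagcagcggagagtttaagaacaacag
Hmmr: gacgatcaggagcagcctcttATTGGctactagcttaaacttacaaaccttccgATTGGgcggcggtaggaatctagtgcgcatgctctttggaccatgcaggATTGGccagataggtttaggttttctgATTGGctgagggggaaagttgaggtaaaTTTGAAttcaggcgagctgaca
Plk1: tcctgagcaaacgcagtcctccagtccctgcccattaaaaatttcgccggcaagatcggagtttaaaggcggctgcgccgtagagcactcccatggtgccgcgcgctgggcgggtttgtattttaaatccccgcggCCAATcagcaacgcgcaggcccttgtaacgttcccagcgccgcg
Ccnb1: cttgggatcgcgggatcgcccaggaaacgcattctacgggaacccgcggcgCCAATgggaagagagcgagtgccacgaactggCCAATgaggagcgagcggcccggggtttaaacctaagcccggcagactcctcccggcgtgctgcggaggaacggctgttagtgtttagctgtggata
A CHR was found in 5 of the 6, beginning at base 3 after the start in Cenpf, 9 after it in Hmmr and 31 after it in Plk1, just past the stretch shown, and 29 bases before the start in Ube2c and 18 before it in Cdc20. In Ccnb1 neither form was in the 300 bases from 250 before to 50 after the start, and the 2 CCAAT boxes begin 99 and 67 bases before it. All 6 had a CCAAT box. Among 94 promoters of the other G2 and mitosis genes of the lists used here, 59.6% held a CHR of either form and 62.8% a CCAAT box, against 19.2% and 37.4% of all 32851 promoters of that length. Both together were in 43.6% of them and 7.52% of all. DNA replication genes had a CHR in 13.8% of 29 promoters but a CCAAT box in 62.1%. A match of letters is a description and not a shown binding site.

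The members made up 9.85% of the PBS library (95% exact binomial interval 8.72 to 11.1) and 4.55% of the cGAMP library (3.50 to 5.81), a difference of -5.30 points and a ratio of 0.462. The intervals did not overlap. For comparison, as many cells outside the members, those with the highest mean value of 10 S-phase genes (among them Mcm2, Mcm4, Mcm6, Pcna and Rrm2), were taken as S-phase-scored cells. These were 6.87% of the PBS library (5.92 to 7.93) and 10.1% of the cGAMP library (8.58 to 11.9), higher by 3.28 points. For every 100 S-phase-scored cells there were thus 143 members under PBS and 44.9 under cGAMP. The cGAMP cells were the deeper ones. With every cell thinned to 5000 UMIs before scoring, 249 PBS and 60 cGAMP cells were chosen, a difference of -5.65 points. The plot of scores and shares shows both directions, and whether they differ between the treatments beyond the spread of mice was not testable.

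**Figure D1:**
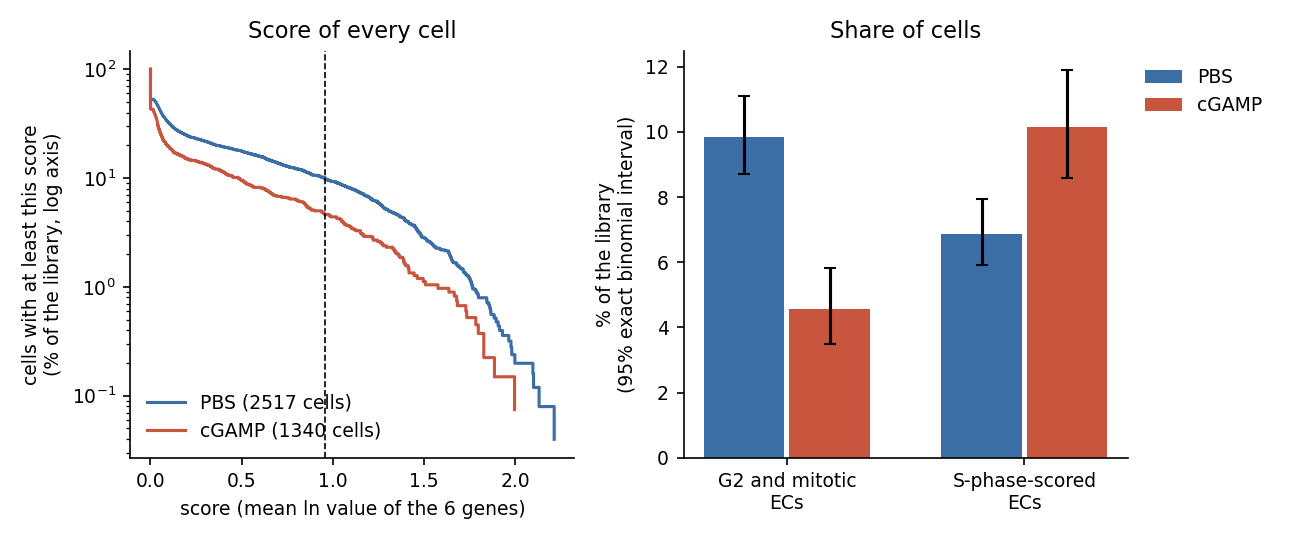
Left, share of the cells of each library (%, log axis) with at least the score on the x axis (mean natural-log value of the 6 genes); the dashed line is the score of the last member. The cGAMP curve lies below the PBS curve at every score above 0. Right, share of each library (%) made up by G2 and mitotic ECs and by S-phase-scored ECs with 95% exact binomial intervals, 9.85% and 4.55% against 6.87% and 10.1%.

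The 6 genes of the rule had similar levels in the members of both libraries, which is a description because they chose the cells. Ube2c was at 997 CPM in PBS members and 1027 CPM in cGAMP members, against 60.1 and 38.8 CPM in the other cells. Cenpf was at 489 and 418 CPM in members and at 31.9 and 14.3 CPM in the other cells. Cdc20 reached 242 and 227 CPM, Hmmr 200 and 184 CPM, Ccnb1 180 and 183 CPM, and Plk1 159 and 174 CPM. Single members varied widely: Ube2c ran from 0.751 through a median of 9.55 to 31.1 UMIs per 10000 UMIs of the cell in the PBS members, and from 0 through 10.3 to 24.5 in the cGAMP members. After thinning to 5000 UMIs a cell, Ube2c was found in 227 of 238 PBS members and 57 of 60 cGAMP members left, against 13.3% and 8.45% of the other cells, and without thinning in 100% and 98.4% of members against 33.5% and 24.6%. With the same limit of score in both libraries, the log2 ratio of cGAMP over PBS outside the members lay between -1.16 (Cenpf) and -0.46 (Plk1), and inside them between -0.22 (Cenpf) and 0.13 (Plk1).

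Many genes of the mitotic apparatus that the score did not use were higher in members too. They were measured in the cells that the score chose, so their values describe the members and are no test of them. Of 101 other G2 and mitosis genes that reached 5 CPM, 100 were higher in members than in the other cells of the PBS library and 85 by 2-fold or more, with a median log2 ratio of 2.63. Under cGAMP 98 were higher and 88 by 2-fold or more, with a median of 2.83. Over all genes tested, 4.08% were higher in members by 2-fold under PBS and 4.64% under cGAMP, 1.32% and 2.86% were lower by as much, and the median log2 ratio was 0.02 and 0.01. In both libraries together, 354 of 9271 genes (3.82%) were 2-fold higher and 53 (0.572%) 2-fold lower. Over S-phase-scored cells the rise was smaller. There 90 of the 101 genes were higher under PBS and 94 under cGAMP, 39 and 50 by 2-fold, with medians of 0.74 and 0.96. Over all genes, 141 of 9534 and 173 of 9427 were 2-fold higher in members than in S-phase-scored cells.

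Spindle and cytokinesis genes had the highest medians, at log2 ratios of 3.05 under PBS and 3.52 under cGAMP, and all 26 were past 2-fold in both. Over S-phase-scored cells 23 and 24 of the 26 were past 2-fold. Aspm, a spindle pole protein, was at 87.7 CPM in PBS members and 70.6 CPM in cGAMP members, against 6.44 and 3.33 CPM in the other cells. Its log2 ratios of 3.77 and 4.41 were the highest of the 101 genes in each library. Kif11, the kinesin that pushes spindle poles apart, had log2 ratios of 3.30 and 3.54. Cit, a kinase of the cytokinetic midbody, had the lowest of this group, at 1.58 and 1.82.

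All 24 kinetochore, centromere and checkpoint genes were also past 2-fold over the other cells in both libraries, with medians of 2.83 and 3.15. Over S-phase-scored cells 7 and 11 of the 24 were past 2-fold, with medians of 0.73 and 0.95. Cenpe, a kinetochore motor, was at 278 CPM in PBS members and 242 CPM in cGAMP members, against 22.7 and 13.4 CPM in the other cells. Cenpa, the histone variant that marks centromeres, was at 345 and 324 CPM in members. In the other cells it was at 46.3 CPM under PBS and 18.5 CPM under cGAMP, which made its log2 ratio 2.90 in the one and 4.13 in the other. In S-phase-scored cells Cenpa was at 51.0 and 32.4 CPM, and its log2 ratios of members over S-phase-scored cells, 2.76 and 3.32, were the highest of the 101 genes. Birc5 (survivin), a subunit of the chromosomal passenger complex, was at 578 and 565 CPM in members against 79.0 and 49.6 CPM in the other cells. Bub3, a checkpoint protein, had the smallest log2 ratios of the group, 1.26 and 1.24.

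Among the mitotic cyclins, kinases and their regulators, 17 of 18 genes were past 2-fold under PBS and 18 of 18 under cGAMP. Aurka, the Aurora kinase of the spindle poles, was at 96.3 and 119 CPM in members against 7.60 and 6.50 CPM in the other cells. Cdk1 was at 509 and 617 CPM against 70.9 and 77.8 CPM. Cdc25c, the phosphatase that activates Cdk1 at mitotic entry, stood at 21.8 and 18.9 CPM against 1.93 and 0.908 CPM, and Wee1, the kinase that holds Cdk1 back, at 31.5 and 26.1 CPM against 14.5 and 11.6 CPM. Mybl2, a transcription factor of the MuvB complex, had the lowest log2 ratio of the group in the PBS library (0.91) and one of 1.37 in the cGAMP library. It was lower in members than in S-phase-scored cells, with log2 ratios of -1.55 and -0.89.

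The ubiquitin ligase APC/C stood apart from the other groups. Its 17 genes with their substrates had median log2 ratios of 0.55 and 0.52, and 4 of them were past 2-fold under PBS and 5 under cGAMP. The core subunits Cdc26 (76.6 CPM in PBS members, 78.4 CPM in the other PBS cells) and Anapc2 (47.1 and 42.7 CPM) were close to their levels in the other cells. Among the genes past 2-fold, Espl1 (separase), which cuts cohesin at anaphase, had log2 ratios of 2.86 and 2.57. Fzr1 (Cdh1), the activator that follows Cdc20, had 1.76 and 1.80. Pttg1 (securin), a substrate, was at 45.9 CPM in PBS members and 39.5 CPM in the other PBS cells, and at 54.6 and 55.6 CPM in the cGAMP library. Of 16 chromosome structure genes, 14 and 15 were past 2-fold over the other cells. Over S-phase-scored cells 1 and 3 were 2-fold higher and 1 and 0 2-fold lower, with medians of 0.46 and 0.58. Among the 16 genes Mki67, which coats mitotic chromosomes, was at 495 and 349 CPM in members against 67.8 and 33.1 CPM in the other cells. Top2a, which untangles sister DNA, was at 573 and 535 CPM against 81.6 and 60.7 CPM.

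**Figure D2:**
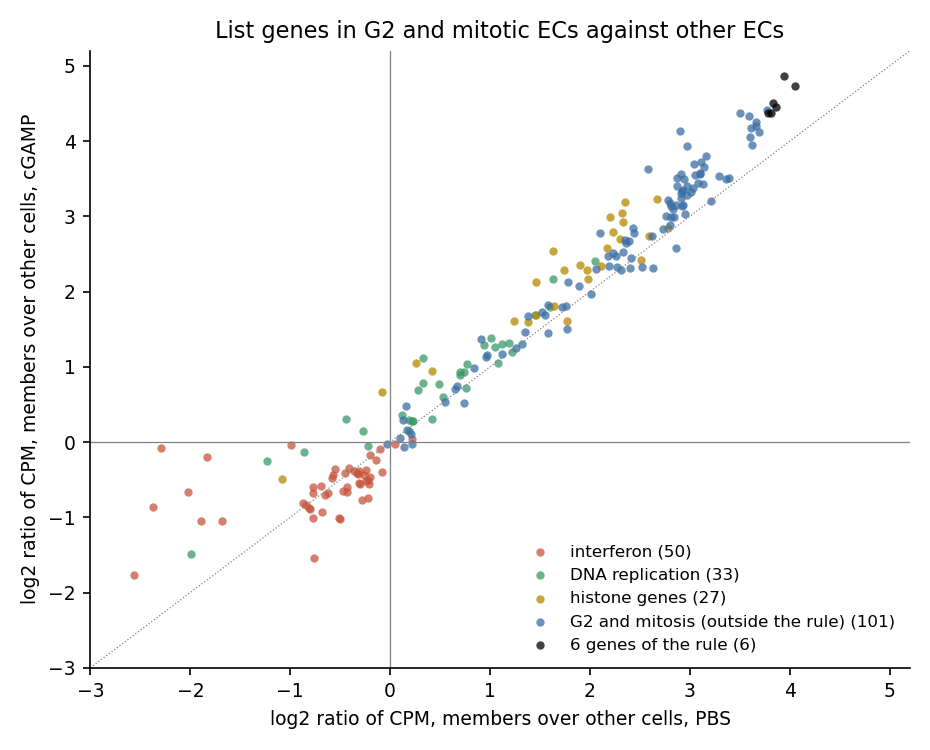
Log2 ratio of CPM in members over the other cells in the PBS library (x axis) and in the cGAMP library (y axis) for list genes that reached 5 CPM in members or other cells of each library; each point is a gene and the dotted line is equality. G2 and mitosis genes reach 3.77 (PBS) and 4.41 (cGAMP). Most replication and histone genes lie above 0 and below those highest values, but some lie below 0, down to Ung at -1.99 and -1.48. Nearly all interferon genes lie below 0 on both axes.

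DNA replication genes were less raised, with medians of 0.53 under PBS and 0.79 under cGAMP, and 10 and 13 of 33 genes were past 2-fold higher. They differed by kind. Tk1, the thymidine kinase whose protein peaks late in S phase and G2, was at 112 CPM in PBS members and 108 CPM in cGAMP members against 27.0 and 20.3 CPM in the other cells. Rrm2, the small subunit of ribonucleotide reductase, was at 82.8 and 127 CPM against 26.8 and 28.4 CPM. The helicase gene Mcm2 was at 31.2 and 38.3 CPM against 27.5 and 31.3 CPM, and at 98.5 and 98.2 CPM in S-phase-scored cells. Ung, which removes uracil from new DNA, was lower in members, at 2.31 and 4.40 CPM against 9.21 and 12.3 CPM. Set against S-phase-scored cells, whose score used 10 of these genes, the list had median log2 ratios of -1.49 and -1.02.

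Histone genes, listed by their cluster names, were higher in members than in the other cells, with median log2 ratios of 1.97 and 2.35. Of these, 23 of 27 tested under PBS and 26 of 29 under cGAMP were past 2-fold. Over S-phase-scored cells the medians were -0.09 and 0.23, with 12 of 28 and 22 of 30 genes higher. Their copies are near-identical, so single genes are uncertain. Hist1h2ap was at 146 and 153 CPM in members against 37.3 and 31.3 CPM in the other cells. Hist1h2bc went the other way, at 49.2 and 49.1 CPM against 104 and 69.3 CPM.

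Members differed in S-phase transcript along the rank by score. Among the 103 highest-ranked members the median histone level was 2.68 UMIs per 10000 in the 87 PBS cells and 2.47 in the 16 cGAMP cells, close to the 2.30 and 1.36 of the cells below rank 618. It was 16.9 and 12.6 in ranks 104 to 206, and 10.8 and 16.3 in the members from rank 207 on. The plot by rank shows a dense row of members near 0 histone UMIs at the top ranks and a broad scatter from there on. The replication list was at a median of 12.1 and 13.5 UMIs per 10000 in the first 103 ranks, 18.1 and 18.2 in the next and 16.2 and 28.1 in the last. Ccne2, the cyclin E2 of S-phase entry, went from 2.57 and 2.16 CPM through 6.45 and 6.80 CPM to 7.23 and 17.3 CPM. Aurka went the opposite way, from 145 and 171 CPM through 90.5 and 122 CPM to 61.8 and 87.3 CPM, and Cenpa from 450 and 489 CPM to 276 and 214 CPM. The score and Aurka both read late-cycle transcript, so this order is a description of the ranking.

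**Figure D3:**
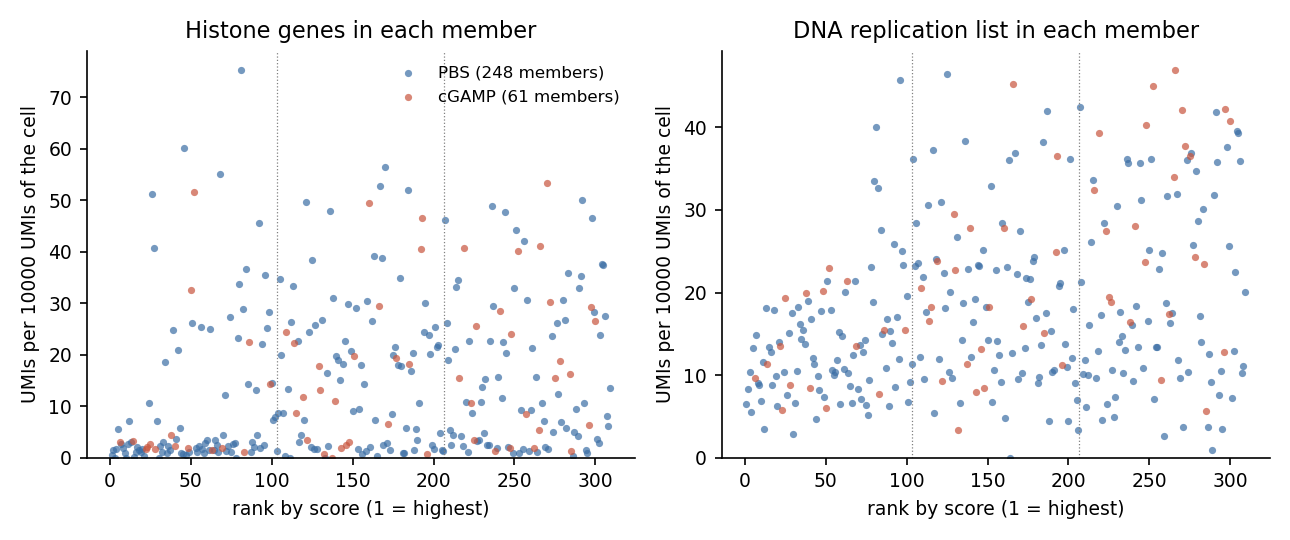
Summed UMIs of histone genes (left) and of the DNA replication list (right) per 10000 UMIs of the cell in each member, against the rank by score; points are single cells of the PBS (248) and cGAMP (61) libraries, and dotted lines follow ranks 103 and 206. Histone levels are mostly near 0 up to the first line (medians 2.68 and 2.47), and the replication list is highest in the cGAMP cells after the second line (median 28.1).

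Of the genes that restrain the cycle or start it, 18 were tested under PBS and 16 under cGAMP, with medians of -0.23 and -0.02. Cdkn2c (p18), an inhibitor of Cdk4 and Cdk6, was at 70.9 and 55.1 CPM in members against 14.2 and 11.3 CPM, the 1 gene of the list past 2-fold higher. Ccnd2 (cyclin D2) was at 6.00 and 9.31 CPM in members against 24.1 and 58.9 CPM, the 1 gene past 2-fold lower. Ccnd1 (cyclin D1) was at 306 and 450 CPM in members against 359 and 386 CPM. The p53 target Cdkn1a (p21) was at 211 and 328 CPM in members against 246 and 393 CPM, and within the members it was lowest in the first 103 ranks, at 145 and 232 CPM.

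By list medians, members had nearly the pan-endothelial transcript of the other cells and less of that of single vessel types. The 11 pan-endothelial genes had median log2 ratios of members over other cells of -0.09 and -0.06, with Pecam1 at 873 and 768 CPM in members against 954 and 828 CPM. Of the 11 genes, 9 were lower under PBS and 7 under cGAMP, with Cldn5 lowest at -0.62 and -0.92. All 7 arterial genes were lower in both libraries, with medians of -0.75 and -1.39. Over all genes, 3538 of 9271 were lower in both. Gja5 (connexin 40) gave 9 UMIs in 6 PBS members and none in the 61 cGAMP members, which allows up to 4.92% of cells with a UMI and sets no limit on cells expressing it, while it was at 12.8 and 7.29 CPM in the other cells. Gja4 (connexin 37) was at 10.9 and 7.50 CPM in members against 58.0 and 23.4 CPM. The 9 tip-like genes had medians of -0.60 and -0.49: Pgf (placental growth factor) was at 92.7 and 40.3 CPM against 259 and 157 CPM, and Angpt2 (angiopoietin-2) at 346 and 436 CPM against 384 and 568 CPM. Stalk-like or venous genes had medians of -0.22 and -0.77, and capillary genes -0.26 and -0.41. The capillary genes were mixed under PBS, with 4 of 7 lower and Car4 highest at 0.65, and all 7 were lower under cGAMP. Against S-phase-scored cells the PBS members were near level, with medians of 0.08 (arterial), 0.13 (tip-like), -0.06 (stalk-like or venous) and 0.01 (capillary). Under cGAMP these medians were -0.25, -0.13, -0.43 and -0.32. The lower levels against all other cells are therefore not particular to the members in the PBS library. A list can be lower in members because fewer of them are of that vessel type or because each has less transcript, which summed counts do not tell apart.

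Outside the rule and the lists, 8 genes had the largest ratios in both libraries among those with at least 20 CPM. Sapcd2, which orients the spindle, was at 40.5 and 34.9 CPM in members against 2.10 and 0.924 CPM, with log2 ratios of 4.27 and 5.24. Kif18b, a kinesin that trims astral microtubules, was at 20.6 and 24.3 CPM against 1.69 and 1.61 CPM. The others were Parpbp, Pimreg, Prr11, Fam83d, Depdc1a and Cdkn3, with log2 ratios from 3.22 to 3.58 under PBS and from 3.83 to 4.21 under cGAMP. Cdkn3, a phosphatase of Cdk1 and Cdk2, was at 115 and 96.7 CPM against 12.4 and 5.23 CPM. On the lower side stood Nts (neurotensin), at 25.1 and 13.2 CPM against 146 and 50.9 CPM, and Slfn5, an interferon-responsive gene, at 70.0 and 71.1 CPM against 199 and 219 CPM. Mxd4, a Max partner that opposes Myc, was at 47.9 and 18.4 CPM against 119 and 66.8 CPM. Kdm5b, Kcnj8, Isg20 and Pfkfb3 were also lower, by log2 ratios of -1.14 to -1.62 under PBS and -1.32 to -2.62 under cGAMP. Hbb-bs, a haemoglobin gene of red cells, met the same rule at 24.9 CPM in PBS members, but 277 of its 291 UMIs came from 1 cell.

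Members of both libraries were taken above the same score of mitotic genes, so that like levels of other mitotic genes inside them, and a difference left among the cells below that score, are in part set by the choice of cells and are given as a description. Of the 101 G2 and mitosis genes, 34 were higher and 67 lower in cGAMP members, none by 2-fold, with a median log2 ratio of -0.10 against -0.07 over all 9478 genes tested. Over all genes, 4011 were higher and 5467 lower, and 1.72% were 2-fold higher and 2.55% 2-fold lower. In the other cells the same list had a median of -0.35 over 90 genes, 3 of them 2-fold lower, where 1.87% of all genes were past 2-fold in each direction. The smallest ratios in members were those of Anapc2 (-0.65, exact 95% interval -0.95 to -0.36), of Cdc25b (-0.62, -0.88 to -0.37) and of Mki67 (-0.50, -0.59 to -0.42). The largest was that of Mybl2 (0.62, 0.21 to 1.02), and Aurka had 0.31 (0.15 to 0.47). Ccnb2 (cyclin B2) was at 206 CPM in PBS members and 157 CPM in cGAMP members, and in the other cells at 34.5 and 12.7 CPM, a log2 ratio of -0.39 inside and -1.44 outside.

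**Figure D4:**
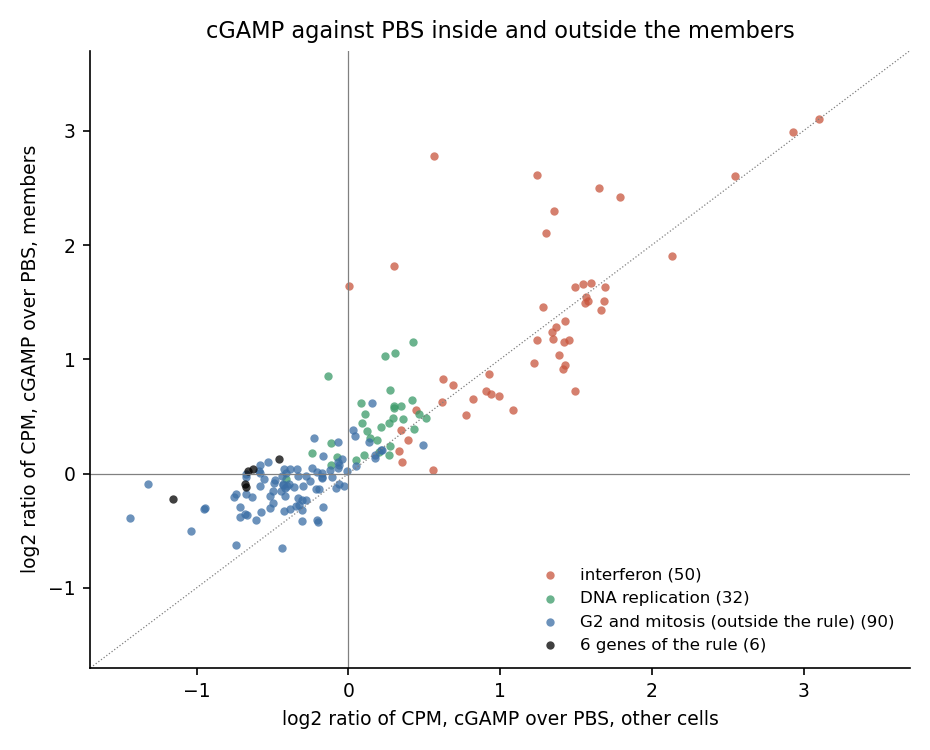
Log2 ratio of CPM, cGAMP over PBS, in the other cells (x axis) and in the members (y axis), for list genes that reached 5 CPM in 1 of the libraries in both kinds of cells; points are genes and the dotted line is equality. G2 and mitosis genes lie near 0 in members (median -0.10) and below 0 in the other cells (-0.35), replication genes above 0 and mostly above the line, and interferon genes highest on both axes.

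DNA replication genes were higher in cGAMP members in 31 of 32 cases, with a median log2 ratio of 0.44 and 3 past 2-fold. Cdc6, which loads the replicative helicase, was at 5.23 CPM in PBS members and 11.6 CPM in cGAMP members (log2 ratio 1.15, 0.57 to 1.73). Ccne1 (cyclin E1) was at 8.23 and 17.1 CPM (1.05, 0.58 to 1.52). The median was 0.24 in the other cells and -0.06 in S-phase-scored cells. S-phase-scored cells of both libraries were taken above the same score, which used genes of this list. Their median is thus in part set by that choice and cannot show whether the rise is particular to the members. With the 5% of cells of highest mitotic score as members, the median in members was 0.041, and Ccne1 then had a log2 ratio of -0.37. That is the same pattern as in the plot by rank, where the libraries part from rank 207 on. Histone genes had a median of 0.19, with 20 of 29 higher. Of all 9478 genes tested, 4011 were higher in cGAMP members.

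Interferon-stimulated genes were higher in cGAMP members without exception among the 50 tested, 30 of them by 2-fold or more, with a median log2 ratio of 1.21. In the other cells all 52 tested were higher, 34 by 2-fold, with a median of 1.35, and in S-phase-scored cells the median was 1.20. Over all genes, 4011 of 9478 were higher under cGAMP in members and 3963 of 9490 in the other cells, 1.72% and 1.87% by 2-fold. Cell by cell, the summed list ran from 17.5 through a median of 48.0 to 450 UMIs per 10000 in PBS members, and from 41.1 through 150 to 340 in cGAMP members. Of the cGAMP members 60 of 61 were above the PBS median, and 9 of 248 PBS members were above the cGAMP median. The groups overlapped, and no cGAMP member was above the highest PBS member. Irf7, the interferon regulatory factor that amplifies the response, was at 48.1 and 381 CPM in members (log2 ratio 2.99, 2.85 to 3.13) and at 87.8 and 669 CPM in the other cells. Isg15, a ubiquitin-like modifier, was at 168 and 520 CPM, and Psmb9, a subunit of the immunoproteasome, at 85.9 and 194 CPM. The MHC class I gene H2-K1 was at 938 and 2667 CPM in members and B2m, its light chain, at 1026 and 2498 CPM. Samhd1 had the smallest log2 ratio of the list, 0.04.

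**Figure D5:**
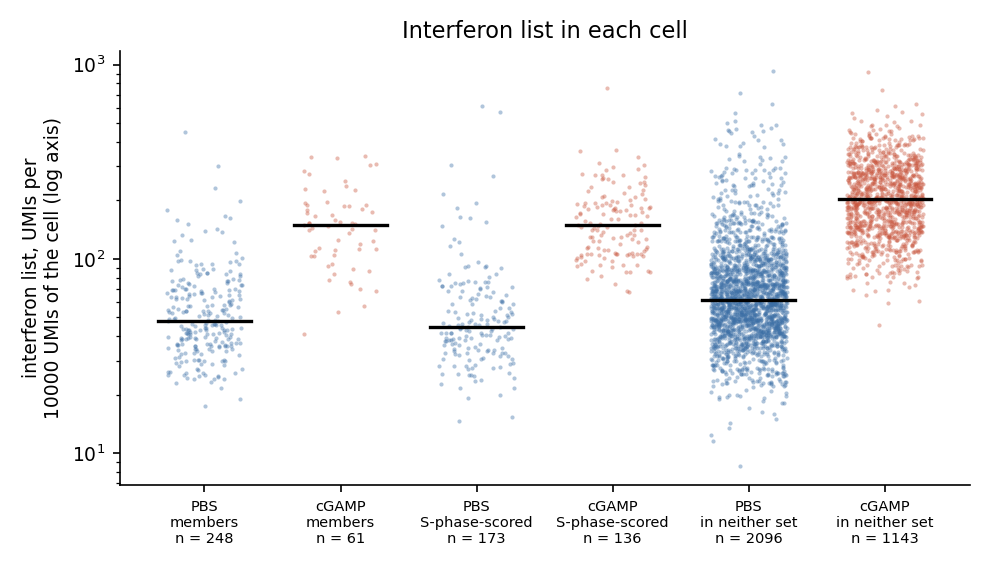
Summed UMIs of the interferon list per 10000 UMIs of the cell (log axis) in each cell, by library and class of cell; black bars are medians. Members have medians of 48.0 (PBS) and 150 (cGAMP), and the bars of cells in neither set lie higher in both libraries.

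Members had less interferon transcript than the other cells of their own library. In the PBS library 48 of 50 genes were lower in members, 7 by 2-fold, with a median of -0.48. In the cGAMP library 51 of 52 were lower, 8 by 2-fold, with a median of -0.57. Of all genes tested, 4567 of 9549 (PBS) and 4674 of 9480 (cGAMP) were lower in members, 1.32% and 2.86% by 2-fold. The list's median per cell was 60.2 UMIs per 10000 in the other PBS cells and 197 in the other cGAMP cells. S-phase-scored cells were closer to members, which had median log2 ratios of -0.05 and -0.12 over them. The genes furthest down in PBS members were Cxcl10 (17.5 CPM against 104 CPM in the other cells), Ifit2 (5.23 against 27.1), Rsad2 (23.9 against 117), Ifit1 (12.1 against 49.2) and Cmpk2 (7.80 against 27.9). In cGAMP members these stood at 75.3, 18.4, 164, 73.7 and 24.3 CPM. They were picked as the lowest in PBS members, so no comparison of the treatments rests on them. Of the Rsad2 UMIs in cGAMP members, 332 of 633 came from 1 cell, and without that cell the log2 ratio of cGAMP over PBS was 1.75 in place of 2.78.

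The interferon-stimulated response element (ISRE), to which IRF and STAT complexes bind, was searched in the promoters of the interferon list as a core of GAAA, 2 bases of any kind and GAAA, on either strand. It was in 45.1% of 51 promoters of the list, in 3.44% of all promoters, in 5.32% of the G2 and mitosis promoters and in none of the 6 of the rule. The promoters of Isg15, Ifit1 and Rsad2 are shown as examples of genes of the list with a summed level more than 2-fold higher in cGAMP members, with each core in capitals (in Isg15 3 cores overlap), at chr4:156200789-156200968 (minus strand), chr19:34640739-34640918 (plus strand) and chr12:26456423-26456602 (minus strand).
Isg15: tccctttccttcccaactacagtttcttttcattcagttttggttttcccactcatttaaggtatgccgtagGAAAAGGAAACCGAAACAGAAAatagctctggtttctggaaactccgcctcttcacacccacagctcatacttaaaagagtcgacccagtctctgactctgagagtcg
Ifit1: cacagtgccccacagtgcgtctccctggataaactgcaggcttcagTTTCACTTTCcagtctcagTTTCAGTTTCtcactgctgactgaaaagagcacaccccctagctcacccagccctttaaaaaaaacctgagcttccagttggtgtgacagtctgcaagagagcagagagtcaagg
Rsad2: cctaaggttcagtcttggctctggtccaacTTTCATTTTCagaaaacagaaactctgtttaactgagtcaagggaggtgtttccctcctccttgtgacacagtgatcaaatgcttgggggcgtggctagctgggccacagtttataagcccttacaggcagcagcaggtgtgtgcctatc
The cores begin 78, 72 and 66 bases before the start in Isg15, 104 and 85 before it in Ifit1 and 120 before it in Rsad2.

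TNF and NF-kB genes were split in members, with 18 of 29 higher in cGAMP and 11 lower, 4 and 1 by 2-fold. Over all 9478 genes, 4011 were higher and 5467 lower, 1.72% and 2.55% by 2-fold. The median of the list was 0.19, against 0.36 in the other cells. Plaur, the urokinase receptor, was at 88.1 and 238 CPM, and Il6 at 25.4 and 56.6 CPM. Sele (E-selectin), an adhesion molecule for leucocytes, was at 10.9 and 2.59 CPM in members but at 13.7 and 23.2 CPM in the other cells, resting on 127 and 10 UMIs in members, and with the 12% of cells of highest score its log2 ratio of cGAMP over PBS turned from -2.07 to 0.13. Ccl2 was at 101 and 305 CPM, with 816 of its 1179 cGAMP UMIs from 1 cell and a log2 ratio of -0.058 in place of 1.59 without it. This list too was lower in members than in other cells, with medians of -0.41 and -0.52: Nfkbia, the inhibitor that NF-kB induces, was at 569 and 761 CPM in members against 945 and 1327 CPM. Apoptosis genes had a median of 0.02 in members and 0.07 in the other cells, none past 2-fold in members. Bax, which opens the outer mitochondrial membrane, was at 304 and 408 CPM in members, and Casp8 at 127 and 136 CPM.

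The 8 genes with the highest ratios of cGAMP over PBS in members, at a minimum of 20 CPM, were led by Ccl5, a chemokine for T cells, with 2 UMIs in PBS members (0.171 CPM) and 804 in cGAMP members (208 CPM), 524 of them in 1 cell. The other 7 were Ubd, Serping1, Cd74, Cfb, Cxcl9, Lyve1 and 2010005H15Rik. Serping1, the C1 inhibitor of complement, was at 6.69 and 113 CPM (log2 ratio 4.07, 3.72 to 4.44) with UMIs in 29 of 248 and 44 of 61 members, and Cfb, complement factor B, at 3.86 and 33.4 CPM (3.11, 2.61 to 3.64). Ubd (FAT10), a ubiquitin-like modifier, was at 6.52 and 267 CPM, with 491 of 1031 cGAMP UMIs in 1 cell. Cxcl9 was at 76.8 and 662 CPM, and 488 of its 896 PBS UMIs came from 1 cell. Lyve1, a hyaluronan receptor of lymphatic and some venous ECs, was at 5.57 and 46.0 CPM. At the other end, Gkn1 gave 298 UMIs in 53 PBS members and 3 in 2 cGAMP members. Cpe, Ramp3 and Gm37800 were lower by log2 ratios of -2.45 to -2.04. Chga had -2.03, but between 0.21 and 0.77 under 4 other choices of the members. The predicted gene Gm47283 was lower by -2.18 in members and by -2.06 in the other cells. Ccl21a and Hbb-bs had no UMI in cGAMP members, but 485 of the 486 Ccl21a UMIs and 277 of the 291 Hbb-bs UMIs of PBS members lay in 1 cell each.

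One cGAMP member, of rank 284 and 131818 UMIs, held 30% or more of the cGAMP members' UMIs for 8 of the genes named here, Ccl5, Cpe, Chga, Kcnj8, Rsad2, Cxcl10, Ifit2 and Ccl2. It had 76 UMIs of Pecam1, 121 of Cdh5 and 2 of the leucocyte list, and 1 cGAMP member had more UMIs. Without it Ccl5 had a log2 ratio of 8.77 in place of 10.2, Cxcl10 1.62 in place of 2.11 and Cpe -3.21 in place of -2.45.

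At 50 CPM or more in the members of at least 1 library stood 3408 genes, of which 368 had a ratio of cGAMP over PBS in members above that in the other cells and 335 one below it, with intervals that did not overlap. This difference was not tested against the spread of mice. The heat shock genes Hspa1a and Hspa1b were at 84.0 and 36.9 CPM in PBS members and at 314 and 122 CPM in cGAMP members, log2 ratios of 1.90 and 1.72, while in the other cells the ratios were 0.27 and 0.24. They were found in 46 and 44 of the 61 cGAMP members and in 126 and 97 of the 248 PBS members, and being near-identical copies they may share reads. Ackr1, the chemokine-binding receptor of venules, was at 38.1 and 52.2 CPM in members, a log2 ratio of 0.46, and at 39.7 and 179 CPM in the other cells, a ratio of 2.17. Cd14 had a log2 ratio of -0.27 in members and 1.22 in the other cells, and Ehd3 one of 1.83 and 2.91. Esm1, a secreted proteoglycan of tip cells, was at 298 and 85.4 CPM in members, and its ratio was -1.81 there and -0.68 in the other cells. Gal (galanin) was at 68.8 and 153 CPM in members, but 586 of its 593 cGAMP UMIs lay in 1 cell and 543 of its 802 PBS UMIs in another.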

How the data were processed

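By the methods, live CD31-positive, CD45-negative ECs were sorted and sequenced in 2 droplet libraries, 1 per treatment. Shares of cells are therefore shares of the live ECs that were sorted. The methods and a supplementary legend differ on the time between injection and sampling. Per the labels the authors used Cell Ranger 3.0.0 and Seurat 3.1.1 with build mm10, and by the methods cells under 500 genes or above 10% mitochondrial UMIs were left out, as were genes seen in fewer than 3 cells and clusters without Pecam1. No removal of doublets is named. The values the authors deposited are the natural log of 1 plus a gene's UMIs per 10000 UMIs of the cell, for 17139 genes. They were turned back into UMIs: 100% of the 13483883 (PBS) and 7904326 (cGAMP) non-zero values lay no more than 0.01 from a whole number. UMIs were summed over the cells of a class and library and given as CPM with exact Poisson limits, and ratios as log2 with exact binomial limits (95%). A count of 0 was set to 3 for a ratio. Genes under 5 CPM in both classes compared were left out, and 2-fold or more is named as such. Since each treatment is 1 library, no test was made. Ratios were checked on simulated counts that held counting error only, so the check does not cover the spread between cells.

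The members and the gene lists, written from general knowledge, were chosen with earlier results of these data known. Named genes were the 6 of the rule, examples from the lists, the 8 highest and 8 lowest ratios of cGAMP over PBS in members and of members over other cells in both libraries outside the lists (at least 20 CPM), and 5 each way whose ratio in members departed most from the other cells (at least 50 CPM). Mx2, Cd3e and Nkg7 of the lists were not used here. Alternatives were the top 5% and 12%, the top 8% of each library, scores without the logarithm, after thinning to 5000 UMIs or over the other G2 and mitosis genes, a mitochondrial limit of 5%, no cells above the 95th percentile of UMIs, mean per-cell CPM, median-of-ratios scaling and minimums of 1 and 20 CPM. Added after the data were seen were removal of the barcode found in both libraries or of 1 cell, and as many PBS members as cGAMP members. Promoters are from RefSeq (GRCm38.p6). The labels and the methods differ on the version of the droplet kit. Python 3.11.15, numpy 2.4.6, scipy 1.17.1, pandas 2.3.3 and matplotlib 3.10.9 were used. Values of some list genes are not reported here.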

Additional observations from a re-analysis of the deposited data

Results flagged for a closer look

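The share of G2 and mitotic ECs and that of S-phase-scored ECs, which were drawn outside the members, moved in opposite directions between the libraries, by -5.30 and 3.28 points. Among the named genes, 4 had ratios of cGAMP over PBS of opposite sign in members and in the other cells, at 0.5 or more on the log2 scale and with counting intervals that leave out 0 on both sides. Kcnj8, a potassium channel subunit, had -0.73 in members and 0.51 in the other cells. Sele had -2.07 and 0.76, but 0.13 in members with the top 12% of cells. Mgp, a matrix protein of arterial ECs, had -2.58 and 0.77, where the 12 Mgp UMIs of cGAMP members all came from 1 cell. Gal had 1.16 and -0.95, and without its leading cell in each library the ratio in members was -3.60. None of these differences was tested, since each treatment is 1 library.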

How the results depend on the processing

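Each treatment is 1 mouse, so leaving out a replicate was not possible. No paired analysis was possible because each group holds 1 library. The interferon median and the G2 and mitosis medians kept their sign under every alternative run. Members were chosen by mitotic genes in each, so the sign of the G2 and mitosis medians was in part set by the choice. The share of members stayed lower in the cGAMP library wherever it was compared. It was not compared with the top 8% of each library, where the choice itself sets it. The share difference was -3.44 points with the top 5% of cells and -7.19 with the top 12%, where that of S-phase-scored cells was 6.19. The PBS median of the G2 and mitosis genes was 2.88 with the score over those genes, which then chose the cells by them, and 2.96 with per-cell CPM. The replication median of cGAMP over PBS in members was 0.041 with the top 5%, 0.72 with the top 8% of each library, 0.23 with the score over the other G2 and mitosis genes and 0.26 without cells above the 95th percentile of UMIs. Genes 2-fold higher and lower in cGAMP members numbered 87 and 57 at a minimum of 20 CPM, 421 and 672 at 1 CPM, and 325 and 409 with 61 PBS members, against 163 and 242. Genes 2-fold lower in members than in other cells numbered 19 at 20 CPM, 142 at 1 CPM, 91 with the top 5% and 89 with per-cell CPM, against 53.

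For named genes, 1567 values under the alternatives stayed within their counting interval and 465 moved out of it. A change of sign was recorded only for ratios of 2-fold or more, in 15 values. As log2 ratios of cGAMP over PBS in members, Ccl2 went to -0.33 without cells above the 95th percentile and -0.058 without the cGAMP member of rank 284. Csf3 went to -0.89 and Ccne1 to -0.37 with the top 5%, and Sele to 0.13 with the top 12%. Chga went to 0.21 with the top 12%, 0.41 with the top 8% of each library, 0.77 after thinning and 0.64 with the score over the other genes. Gal went to -3.40 with the top 5%, -0.998 with the score over the other genes and -3.60 without its leading cells. Hbb-bs in PBS members over other cells went to 3.22 with the top 12%, 3.95 without the logarithm and 3.63 after thinning. The causes were not tested. With 61 cGAMP members, a gene under about 0.776 CPM there cannot be told from 0.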
